A study of Homo sapiens with 8 samples.

Results

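Claudins and their partners at the cell junction were followed through 2 colon cancer lines at 2 oxygen levels. The genes were 5 claudins (CLDN1, CLDN2, CLDN3, CLDN4 and CLDN7), the tight junction partners OCLN and TJP1, the adhesion molecules CDH1 and EPCAM, and the desmosomal gene DSP. They were chosen by name with earlier results of these data known, and the p-values do not allow for that choice. All 18 probe sets that the platform annotation gives to exactly 1 of these 10 genes were used. The series holds 19775 genes and 54613 probe sets other than controls. RNA was measured on 8 Affymetrix HG-U133 Plus 2.0 arrays, 2 in each of 4 groups. The groups were DKS-5 cells (K-ras mutant per the labels) kept 12 h at 1% O2, DKS-5 cells at 21% O2, DKO-3 cells (K-ras wild-type, on some labels also called a K-ras knockout) kept 12 h at 1% O2, and DKO-3 cells at 21% O2. All were grown in culture without other treatment. Each K-ras state is represented by 1 line, so differences between K-ras states and other differences between the lines cannot be told apart. The labels do not say that the 2 samples of a group were grown separately. The p-values therefore reflect the spread between 2 samples that may be technical repeats.

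Epithelial cells are held together by junctions stacked along their side walls. In the tight junction, claudins and occludin span the membrane and meet those of the neighbouring cell, and the scaffold protein ZO-1, encoded by TJP1, ties them to actin. Some claudins seal the space between cells and others, such as the one encoded by CLDN2, form pores for small cations. The adherens junction below is built on E-cadherin, encoded by CDH1, and desmosomes anchor keratin filaments through desmoplakin, encoded by DSP. Loss of E-cadherin and of claudins is the textbook sign of an epithelial cell turning mesenchymal.

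Signals are MAS5 intensities brought to the same trimmed mean of 172.1 on every array. The deposited trimmed means ranged from 133 to 201. Differences are on the log2(signal + 16) scale from limma across 12735 genes, and a gene passed at a Benjamini-Hochberg adjusted p under 0.05. The labelled tissue was checked against markers of colon epithelium. Of 9 such markers, 6 lay above the filter on dim genes, and CDX1, GPA33 and LGALS4 did not. KRT20, a keratin of differentiated colon cells, was near background in DKS-5 (signals of 6.20 to 15.5) and clear in DKO-3 (301 to 445). The summed signal of 5 fibroblast markers was 34.6 to 58.9 over the 8 arrays, that of 3 endothelial markers 11.9 to 35.4, and that of the 3 leukocyte markers with a probe set 7.04 to 26.6. RNA quality differed between arrays. The 3′ to 5′ signal ratio of the ACTB control probe sets was 54.8 and 25.6 in DKS-5 hypoxia, 55.1 and 34.2 in DKS-5 normoxia, 11.5 and 11.02 in DKO-3 hypoxia, and 49.0 and 14.9 in DKO-3 normoxia. A higher ratio means less signal from the 5′ end of the transcript.

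CLDN1 was lower in DKS-5 than in DKO-3 at both oxygen levels, about 2-fold, and it did not pass the test for hypoxia in either line. It encodes a claudin that seals the tight junction and is known from the epidermal and intestinal barriers. Its brighter probe set, 218182_s_at, had signals of 113 and 121 in DKS-5 hypoxia, 113.0 and 104 in DKS-5 normoxia, 296 and 232 in DKO-3 hypoxia, and 249 and 269.8 in DKO-3 normoxia. The 4 DKS-5 arrays lay within a narrow band, and every one was below every DKO-3 array. In hypoxia CLDN1 was 2.10-fold lower in DKS-5 than in DKO-3 (log2 difference -1.07, adjusted p = 0.0194). In normoxia it was 2.21-fold lower (log2 difference -1.14, SE 0.24, adjusted p = 0.0155). Averaged over both oxygen levels the difference was -1.11 (SE 0.17, 95% interval -1.46 to -0.75, adjusted p = 0.000519).

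Hypoxia against normoxia gave CLDN1 0.09 in DKS-5 (95% interval -0.42 to 0.60) and 0.02 in DKO-3 (-0.49 to 0.52), and the difference between these responses was 0.07 (-0.65 to 0.79, adjusted p = 1).

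The averaged difference between the lines stayed past the threshold without any 1 of the 8 arrays, with an adjusted p of 0.000943 to 0.00618. The 2 separate comparisons rest on fewer arrays. In normoxia the call was lost without any 1 of the 4 normoxia arrays: the adjusted p was 0.115 without DKS-5 replicate 1, 0.187 without DKS-5 replicate 2, 0.087 without DKO-3 replicate 1 and 0.12 without DKO-3 replicate 2. In hypoxia it was lost without DKO-3 hypoxia replicate 1 (log2 difference -0.90, adjusted p = 0.232). With no filter on dim probe sets the adjusted p was 0.0551 in hypoxia and 0.0519 in normoxia.

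The dimmer CLDN1 probe set, 222549_at, ran the same way, with signals of 100.4 and 126 in DKS-5 hypoxia, 105 and 78.7 in DKS-5 normoxia, 173 and 211 in DKO-3 hypoxia, and 235 and 172 in DKO-3 normoxia. Its lowest DKO-3 array was above its highest DKS-5 array. Tested singly among 32768 probe sets, its averaged difference was -0.85 (adjusted p = 0.0142), where 5.71% of all probe sets passed in either direction. That call was lost without DKS-5 normoxia replicate 2 (adjusted p = 0.0947) or DKO-3 normoxia replicate 1 (adjusted p = 0.0619). With the ratios of ACTB and GAPDH as a covariate for RNA quality the difference was -0.99 and did not pass (adjusted p = 0.124).

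RNA measured in bulk cannot tell fewer cells expressing a gene from less RNA per cell. Beside the CLDN1 difference stood other differences between the lines. Averaged over both oxygen levels, KRT20 was lower in DKS-5 (log2 difference -4.01, adjusted p = 4.34e-09). Its DKS-5 signals were near or below the filter of about 13.8, so KRT20 entered the test through its DKO-3 signals. KRT19 was also lower in DKS-5 (-0.96, adjusted p = 0.00193), and VIL1 was higher (1.65, adjusted p = 2.31e-05). The summed signal of the 9 colon epithelium markers was 7242 to 7941 in DKS-5 hypoxia, 4742 to 5579 in DKS-5 normoxia, 9111 to 9153 in DKO-3 hypoxia and 5510 to 7875 in DKO-3 normoxia. None of these markers' part in the CLDN1 difference was tested. The ACTB ratios were 25.6 to 55.1 on the DKS-5 arrays and 11.02 to 49.0 on the DKO-3 arrays. With the ratios of ACTB and GAPDH as a covariate, CLDN1 differed by -1.03 averaged over both oxygen levels (adjusted p = 0.0381), and by -0.97 in hypoxia, where the call was lost (adjusted p = 0.274).

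**Figure D1:**
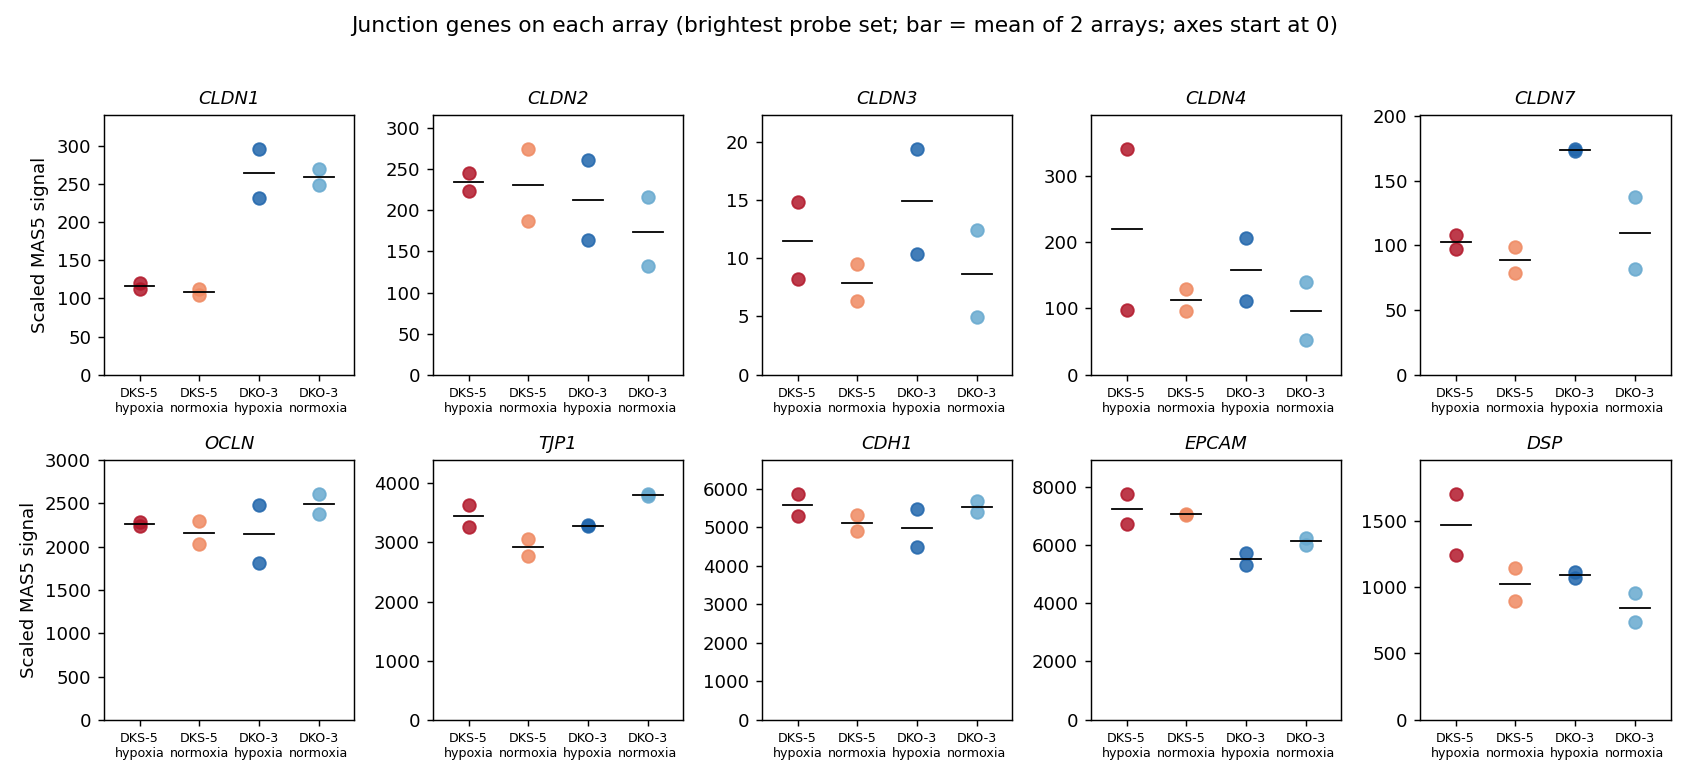
Scaled MAS5 signal (linear axes from 0) of the brightest probe set of each of the 10 genes, with 1 point per array and a bar at the mean of the 2 arrays of a group. All 4 DKS-5 points of CLDN1 lie between 104 and 121, below the DKO-3 points of 232 to 296, while CDH1 and OCLN overlap between the lines.

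The promoter of CLDN1 is shown because it is the 1 gene of the 10 that passed the test, beside those of CLDN4 and CLDN7, which had the largest hypoxia differences among the claudins tested. The sequences are from RefSeq (GRCh38.p14), the 250 bases before the annotated start, 5′ to 3′ on the strand of the gene. CLDN1 lies on the minus strand (chr3:190322447-190322696) and CLDN4 on the plus strand (chr7:73830746-73830995). CLDN7 lies on the minus strand and is shown at the downstream of its 2 annotated starts (chr17:7262479-7262728). Capitals mark matches, on either strand, to any of 4 motifs: the hypoxia response element core ACGTG, the E-box CAGGTG known as a site of the repressors SNAI1 and ZEB1, the AP-1 site TGANTCA and the GC box GGGCGG. None of the capitals is shared by 2 motifs.
CLDN1: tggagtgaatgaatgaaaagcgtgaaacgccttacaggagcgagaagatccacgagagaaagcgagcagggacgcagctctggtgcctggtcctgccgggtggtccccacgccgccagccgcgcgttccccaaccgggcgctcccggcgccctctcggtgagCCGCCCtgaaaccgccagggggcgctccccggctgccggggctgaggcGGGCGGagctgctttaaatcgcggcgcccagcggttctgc
CLDN4: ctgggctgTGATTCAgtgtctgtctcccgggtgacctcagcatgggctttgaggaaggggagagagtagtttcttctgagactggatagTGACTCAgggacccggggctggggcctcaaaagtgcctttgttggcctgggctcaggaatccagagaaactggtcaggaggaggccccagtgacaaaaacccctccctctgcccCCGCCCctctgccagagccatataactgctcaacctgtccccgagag
CLDN7: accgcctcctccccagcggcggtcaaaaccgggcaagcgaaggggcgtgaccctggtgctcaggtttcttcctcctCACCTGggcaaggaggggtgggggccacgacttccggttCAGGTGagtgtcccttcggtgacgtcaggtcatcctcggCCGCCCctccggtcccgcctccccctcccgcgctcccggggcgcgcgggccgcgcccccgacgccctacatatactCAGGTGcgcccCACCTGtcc
The hypoxia response element core was searched as ACGTG alone. Its GCGTG form was not searched, and stands unmarked in lower case in the CLDN1 and CLDN7 windows shown. The CLDN1 window held 2 GC boxes, 88 and 40 bases before the start, and no match to the other motifs as searched. CLDN4 held 2 AP-1 sites, at 242 and 161 bases, and 1 GC box at 47 bases. The CLDN7 window shown held 4 E-boxes, at 174, 135, 20 and 9 bases, and 1 GC box at 96 bases. The window of its other start (chr17:7263214-7263463) held no match to any of the 4 motifs as searched. Among 35116 such windows of all genes, 42.6% held a GC box, 18.5% the hypoxia response element core, 17.5% the E-box and 6.57% the AP-1 site. Of the 10 genes, 8 had an entry, with 14 windows in all. The ACGTG form of the hypoxia response element core was found in 2 of these windows, 1 of CLDN3 and 1 of OCLN. A match is a run of letters and not a shown binding site.

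CLDN2, which encodes a pore-forming claudin of leaky epithelia, was measured by 1 probe set. Its signals were 245 and 223 in DKS-5 hypoxia, 187 and 275 in DKS-5 normoxia, 261 and 164 in DKO-3 hypoxia, and 132 and 216 in DKO-3 normoxia. In every comparison the groups overlapped. The averaged difference between the lines was 0.28 (95% interval -0.17 to 0.72, adjusted p = 0.478), and the hypoxia difference averaged over both lines was 0.15 (adjusted p = 0.788).

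CLDN3 encodes a sealing claudin and a receptor of the Clostridium perfringens enterotoxin, as does CLDN4. Both CLDN3 probe sets fell below the filter at a signal of about 13.8 and were not tested. The probe set 203954_x_at read 14.8 and 8.25 in DKS-5 hypoxia, 9.49 and 6.30 in DKS-5 normoxia, 19.4 and 10.4 in DKO-3 hypoxia, and 4.92 and 12.4 in DKO-3 normoxia. The other, 203953_s_at, ranged from 0.603 to 17.0 over the 8 arrays. In every comparison of the lines or of the oxygen levels the groups overlapped on 203953_s_at. On 203954_x_at the DKO-3 hypoxia arrays lay above the DKS-5 normoxia arrays, and every pair of groups that differed in line or oxygen alone overlapped.

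CLDN4, which lies next to CLDN3 on chromosome 7 with no gene between them, was above the filter but had the widest error of the 4 claudins tested. Its brighter probe set, 201428_at, read 98.2 and 342 in DKS-5 hypoxia, 96.7 and 129 in DKS-5 normoxia, 111 and 206 in DKO-3 hypoxia, and 53.1 and 140.1 in DKO-3 normoxia. In each of the 4 groups replicate 2 was the higher one, and it was also the array with the lower ACTB 3′ to 5′ ratio. In DKO-3 hypoxia the ACTB ratios were nearly equal (11.5 and 11.02), although the signals were 111 and 206. The GAPDH ratio was lower on replicate 2 in DKS-5 hypoxia (3.76 and 2.36 on replicates 1 and 2) and DKO-3 normoxia (4.15 and 2.09), and higher on it in DKS-5 normoxia (3.70 and 4.24) and DKO-3 hypoxia (1.53 and 1.61). Of the 18 probe sets, CLDN4 201428_at was the only one for which the array with the lower ratio was the higher one in 4 of 4 groups. With 2 arrays per group such an order can arise by chance, and its share over all probe sets was not taken. The order is therefore not shown to be particular to CLDN4. The part of RNA quality in its spread was not tested.

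Hypoxia against normoxia averaged over both lines gave CLDN4 a log2 difference of 0.68 (95% interval -0.02 to 1.37, adjusted p = 0.359). Leaving out 1 array gave 0.26 without DKS-5 hypoxia replicate 2 (adjusted p = 0.758) to 1.09 without DKS-5 hypoxia replicate 1 (adjusted p = 0.0328), and with the ratios of ACTB and GAPDH as a covariate the sign turned, to -0.14 (adjusted p = 0.998). Between the lines the averaged difference was 0.28 (95% interval -0.41 to 0.98). It was -0.13 to 0.70 without 1 array, and 1.39 with the quality covariate (adjusted p = 0.0381).

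The dim CLDN4 probe set 1569421_at read 24.0 and 21.6 in DKS-5 hypoxia, 17.6 and 22.5 in DKS-5 normoxia, 27.1 and 17.2 in DKO-3 hypoxia, and 15.0 and 2.01 in DKO-3 normoxia. The DKO-3 normoxia arrays lay below those of every other group. Hypoxia in DKO-3 gave 0.68 (unadjusted p = 0.0309, adjusted p = 0.576), and the lines differed in normoxia by 0.61 (unadjusted p = 0.05, adjusted p = 0.564).

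**Figure D2:**
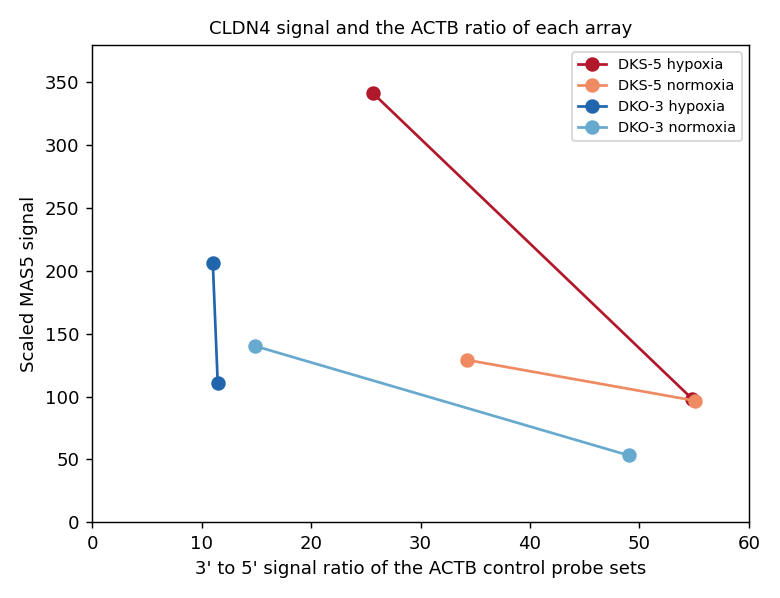
CLDN4 signal (201428_at, scaled MAS5 units) against the 3′ to 5′ signal ratio of the ACTB control probe sets on the 8 arrays, with a line joining the 2 arrays of a group. In each group the array with the lower ratio has the higher CLDN4 signal, from 98.2 against 342 in DKS-5 hypoxia to 96.7 against 129 in DKS-5 normoxia. The share of all probe sets with this order was not taken.

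CLDN7 encodes a claudin that sits along the side wall as well as in the tight junction and binds EpCAM, the protein of EPCAM. Its only probe set read 108 and 97.0 in DKS-5 hypoxia, 78.8 and 98.8 in DKS-5 normoxia, 175 and 173 in DKO-3 hypoxia, and 81.8 and 137 in DKO-3 normoxia. The 2 DKO-3 hypoxia arrays were above all 6 others. Hypoxia gave a difference of 0.63 in DKO-3 (unadjusted p = 0.0304, adjusted p = 0.424) and of 0.18 in DKS-5 (adjusted p = 0.938). The value in DKO-3 was 0.31 without DKO-3 normoxia replicate 1, 0.96 without DKO-3 normoxia replicate 2 and 0.30 with the quality covariate. The difference between these responses, DKS-5 minus DKO-3, was -0.45 (95% interval -1.25 to 0.35, adjusted p = 1). In hypoxia the lines differed by -0.68 (adjusted p = 0.179), and averaged over both oxygen levels by -0.46 (adjusted p = 0.16). Without scaling of the arrays these were -1.09 (adjusted p = 0.0132) and -0.66 (adjusted p = 0.0286), but the median of all genes then moved by -0.42 and -0.21. With the quality covariate they were -0.27 (adjusted p = 0.817) and -0.165 (adjusted p = 0.821).

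The occludin gene OCLN gave different answers by probe set. The brightest, 227492_at, read 2240 and 2291 in DKS-5 hypoxia, 2037 and 2292 in DKS-5 normoxia, 1816 and 2477 in DKO-3 hypoxia, and 2611 and 2384 in DKO-3 normoxia. The lines differed on it by -0.06 on average (95% interval -0.33 to 0.21). On 209925_at the signals were 879.7 and 524 in DKS-5 hypoxia, 837 and 833 in DKS-5 normoxia, 1229 and 1087 in DKO-3 hypoxia, and 1180 and 1379 in DKO-3 normoxia. Each DKS-5 array was below each DKO-3 array. Tested singly, its averaged difference was -0.68 (adjusted p = 0.026). The 2 remaining OCLN probe sets, 231022_at and 235937_at, gave -0.38 and -0.18 and did not pass. OCLN has a near-identical pseudogene copy, OCLNP1, and which copy a probe set reads was not tested, so the OCLN values are uncertain.

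The call on 209925_at was lost with the quality covariate, although the difference grew to -0.80 (adjusted p = 0.188), and in 6 of the 8 fits that left out 1 array. It was kept without DKS-5 hypoxia replicate 1 and without DKO-3 hypoxia replicate 2. The adjusted p was 0.0529 without DKS-5 hypoxia replicate 2, 0.102 without either DKS-5 normoxia array, 0.108 without DKO-3 hypoxia replicate 1, and 0.0511 and 0.121 without DKO-3 normoxia replicates 1 and 2.

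TJP1 encodes ZO-1, the scaffold that binds claudins and occludin from the inside. Its brighter probe set, 202011_at, read 3262 and 3629 in DKS-5 hypoxia, 3063 and 2772 in DKS-5 normoxia, 3292 and 3275 in DKO-3 hypoxia, and 3820 and 3782 in DKO-3 normoxia. The hypoxia arrays were above the normoxia arrays in DKS-5 and below them in DKO-3. The hypoxia differences were 0.24 in DKS-5 and -0.21 in DKO-3, and their difference was 0.45 (95% interval 0.01 to 0.89, unadjusted p = 0.0465, adjusted p = 1). On the dimmer probe set, 214168_s_at, the values were 0.07 in DKS-5 and 0.48 in DKO-3, with a difference of -0.41 (95% interval -1.16 to 0.33, adjusted p = 1), so the probe sets disagree on the direction in DKO-3 and on the order of the lines. In normoxia the lines differed on 202011_at by -0.38 (unadjusted p = 0.0197, adjusted p = 0.27), and averaged over both oxygen levels by -0.16 (adjusted p = 0.411).

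The probe set 214168_s_at read 271 and 269.5 in DKS-5 hypoxia, 242 and 273 in DKS-5 normoxia, 467 and 503 in DKO-3 hypoxia, and 279 and 422 in DKO-3 normoxia. Its DKO-3 arrays were all above its DKS-5 arrays, and its DKO-3 hypoxia arrays were above those in normoxia. The difference of DKS-5 minus DKO-3, averaged over both oxygen levels, was -0.60 (adjusted p = 0.0582), which passed without DKO-3 normoxia replicate 1 (-0.74, adjusted p = 0.0347). It was -0.46 without DKO-3 normoxia replicate 2 (adjusted p = 0.244) and -0.32 with the quality covariate (adjusted p = 0.642). With the mean of both probe sets in place of the brighter one, TJP1 differed by -0.38 (adjusted p = 0.0488).

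CDH1, the E-cadherin gene, was bright on all arrays. Its brighter probe set, 201131_s_at, read 5861 and 5282 in DKS-5 hypoxia, 4907 and 5307 in DKS-5 normoxia, 4479 and 5467 in DKO-3 hypoxia, and 5673 and 5387 in DKO-3 normoxia. Averaged over both lines, hypoxia against normoxia gave -0.02 (95% interval -0.23 to 0.19). The lines differed by 0.03 on average (95% interval -0.19 to 0.24). On the dimmer probe set 201130_s_at the signals were 481 and 261 in DKS-5 hypoxia, 335 and 395 in DKS-5 normoxia, 789 and 508 in DKO-3 hypoxia, and 334 and 773.5 in DKO-3 normoxia. The lines overlapped on it, and the averaged difference of -0.64 did not pass (adjusted p = 0.18). It passed without DKO-3 normoxia replicate 1 (-0.93, adjusted p = 0.0447), and was -0.34 without DKO-3 normoxia replicate 2 (adjusted p = 0.576) and -0.32 with the quality covariate (adjusted p = 0.794).

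EPCAM, a homophilic adhesion molecule of epithelia, came close to the threshold between the lines, with more signal in DKS-5. Its only probe set read 7752 and 6704 in DKS-5 hypoxia, 7073 and 7038 in DKS-5 normoxia, 5316 and 5737 in DKO-3 hypoxia, and 6244 and 5998 in DKO-3 normoxia. Every DKS-5 array was above every DKO-3 array. The averaged difference was 0.29 (1.23-fold, 95% interval 0.10 to 0.49, unadjusted p = 0.0051, adjusted p = 0.0541). It passed without DKS-5 hypoxia replicate 1 (adjusted p = 0.0495) or without DKS-5 hypoxia replicate 2 (adjusted p = 0.00821), and the adjusted p reached 0.202 without another array. It was 0.06 without scaling and 0.20 with the quality covariate (adjusted p = 0.539). In hypoxia alone it was 0.38 (adjusted p = 0.111), 0.49 without DKS-5 hypoxia replicate 2 (adjusted p = 0.0306), 0.28 without DKS-5 hypoxia replicate 1 and 0.25 with the quality covariate (adjusted p = 0.655). Hypoxia against normoxia averaged over both lines gave -0.06 (95% interval -0.25 to 0.13).

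DSP, the desmoplakin gene, read 1239 and 1701 in DKS-5 hypoxia, 896 and 1145 in DKS-5 normoxia, 1064 and 1110 in DKO-3 hypoxia, and 955 and 733.5 in DKO-3 normoxia. In both lines the hypoxia arrays lay above the normoxia arrays. The hypoxia difference was 0.51 in DKS-5 (unadjusted p = 0.0341, adjusted p = 0.658) and 0.37 in DKO-3 (adjusted p = 0.581). Averaged over both lines it was 0.44 (95% interval 0.11 to 0.77, unadjusted p = 0.0124, adjusted p = 0.208). It passed without DKS-5 hypoxia replicate 1 (0.55, adjusted p = 0.0433), was 0.33 without DKS-5 hypoxia replicate 2 (adjusted p = 0.439) and was 0.45 with the quality covariate (adjusted p = 0.824). Between the lines the averaged difference was 0.34 (adjusted p = 0.207).

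Over the genes together, 12 h at 1% O2 changed none of the 9 tested past the threshold. In DKS-5, 0 of 9 passed, where 0.503% of all genes passed, and 1 (DSP) had an unadjusted p under 0.05, as had 6.93% of all genes. In DKO-3, 0 of 9 passed, where 0.346% passed, and 1 (CLDN7) had an unadjusted p under 0.05, as had 10.5% of all genes. Averaged over both lines, 0 of 9 passed, where 1.19% passed, and 2 (CLDN7 and DSP) had an unadjusted p under 0.05, as had 14.3% of all genes. These counts among 9 genes are near what all genes show. For the difference between the responses of the lines, 0 of 9 genes and 0 of 12735 passed, and the unadjusted p was under 0.05 for 1 (TJP1), as for 2.61% of all genes.

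The hypoxia differences of the 4 claudins tested were positive in both lines, with a median of 0.14 in DKS-5, where all genes had a median of 0.02, and of 0.45 in DKO-3, where all genes had 0.04. These signs did not hold with the quality covariate. In DKO-3, where the ACTB ratios were 11.5 and 11.02 in hypoxia and 49.0 and 14.9 in normoxia, CLDN1 was then at -0.07, CLDN2 at -0.09 and CLDN4 at -0.58, and CLDN7 at 0.30. In DKS-5 CLDN2 turned to -0.06 and the other 3 stayed positive. No claudin passed in either fit. Of the 6 colon epithelium markers tested, KRT19 passed for hypoxia in DKS-5 (1.28, adjusted p = 0.0221) and averaged over both lines (1.20, adjusted p = 0.00119), and was at 1.12 in DKO-3 (adjusted p = 0.073). None of the other 5 passed for hypoxia. KRT8, KRT18 and CDX2 had positive differences in both lines, and VIL1 (-0.42 in DKS-5 and -0.18 in DKO-3) and KRT20 (-0.16 and -0.33) negative ones. The part of such shifts in the junction values was not tested. On simulated data with this design, 74% of 2-fold changes were called for hypoxia in DKS-5 and 61% in DKO-3, and 100% of 4-fold changes in each. The simulations called 187 and 173 genes, where 64 and 44 passed in the data, so the adjusted threshold was easier to pass there. These shares can therefore be too high for the data. They are also averages over genes of all spreads, while CLDN4 had the widest error of the claudins tested.

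**Figure D3:**
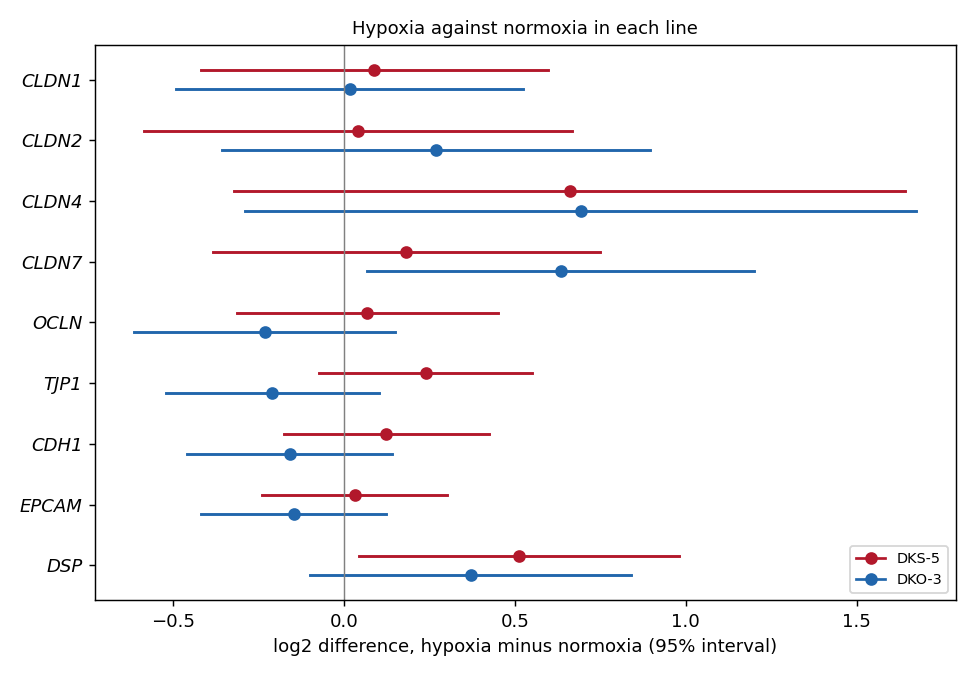
Log2 difference, hypoxia minus normoxia, of the 9 genes tested, in DKS-5 (red) and in DKO-3 (blue), with 95% intervals from limma. The intervals of CLDN4 are the widest, at -0.32 to 1.64 in DKS-5, and those of CDH1 and EPCAM are among the narrowest and cross 0 in both lines.

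Between the lines, CLDN1 was the only gene of the 9 past the threshold in each comparison, lower in DKS-5. In hypoxia 1 of 9 passed, where 4.37% of all genes passed in either direction and 2.98% were lower in DKS-5. In normoxia it was 1 of 9, where 2.54% passed and 1.84% were lower. Averaged over both oxygen levels it was 1 of 9, where 9.11% passed and 6.13% were lower. The averaged count is near the share of all genes and is not a result about the junction genes as a group. Unadjusted p-values under 0.05 in the averaged comparison were found for 4 of 9 genes, CLDN1, CLDN7, EPCAM and DSP, and for 22.5% of all genes. Of the 16 probe sets tested singly, 3 passed, all lower in DKS-5 (both of CLDN1 and 209925_at of OCLN), where 5.71% of all probe sets passed and 3.97% were lower.

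**Figure D4:**
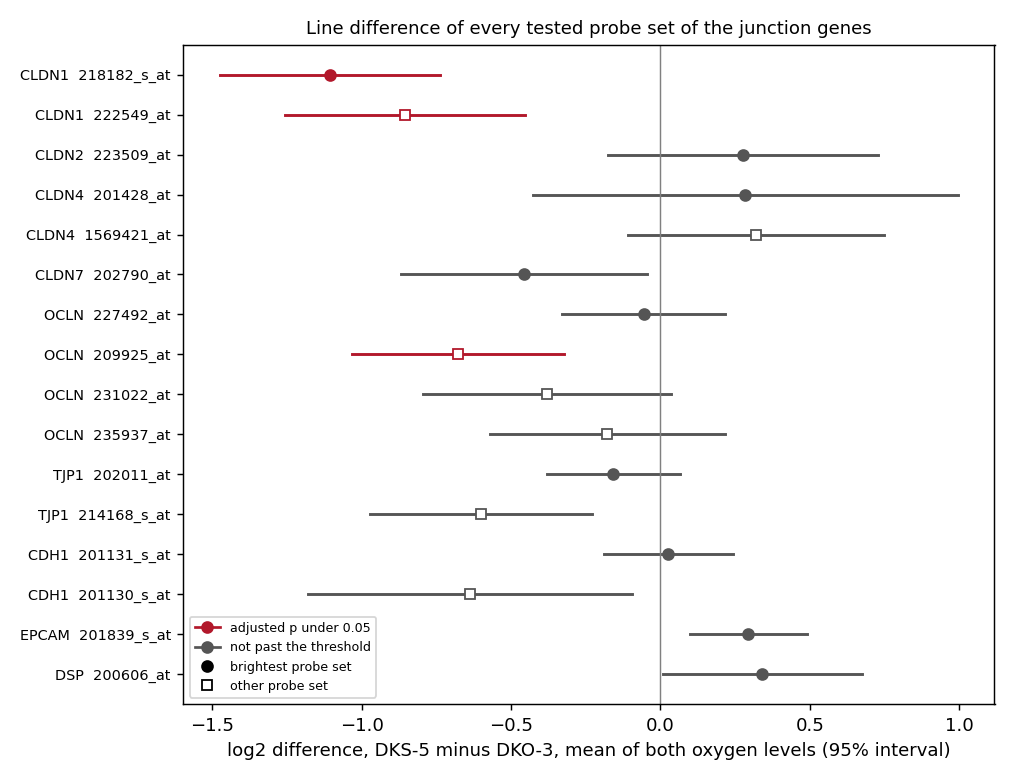
Log2 difference, DKS-5 minus DKO-3, averaged over both oxygen levels, of the 16 probe sets tested, with 95% intervals. Filled circles are each gene's brightest probe set, open squares its others, and red marks an adjusted p under 0.05 over 32768 probe sets. Both probe sets of CLDN1 lie left of 0 at -1.11 and -0.85, while those of OCLN, TJP1 and CDH1 disagree in size within a gene.

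The genes whose profiles over the 8 arrays were most like that of CLDN1 were HSPA2 and ACAD8. HSPA2, a heat shock chaperone gene, differed from the centred CLDN1 profile by a root mean square of 0.106 on the log2 scale, and ACAD8, a mitochondrial dehydrogenase gene of valine breakdown, by 0.109. The SD of CLDN1 itself over the arrays was 0.601. ACAD8 read 113 and 128.5 in DKS-5 hypoxia, 133 and 107 in DKS-5 normoxia, 257 and 233 in DKO-3 hypoxia, and 239 and 259.8 in DKO-3 normoxia.

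The other junction genes were read from lists of the remaining members of each junction type. None of them passed in any hypoxia comparison or for the difference between the lines' responses. JUP was on both the adherens junction and the desmosome list, so its unadjusted p under 0.05 for averaged hypoxia is counted in both. For hypoxia averaged over both lines the unadjusted p was under 0.05 for 2 of 6 other claudins, 3 of 19 tight junction genes, 1 of 12 adherens junction genes, 3 of 9 desmosome genes and 1 of 2 gap junction genes, where 14.3% of all genes had such a p. Between the lines, averaged over both oxygen levels, 1 of 6 other claudins tested was lower in DKS-5, 1 of 19 other tight junction membrane and scaffold genes was lower, 1 of 12 other adherens junction genes was higher, 2 of 9 other desmosome genes were higher and 1 was lower, and of 2 gap junction genes 1 was higher and 1 lower. The adherens junction gene among them, NECTIN3, entered the test through its DKS-5 signals, so the direction of its call was fixed in advance. Over all genes 2.98% were higher and 6.13% lower. With lists of 2 to 19 genes nothing about a list as a whole is read from these counts. The median differences were -0.07 for the other claudins, -0.05 for the tight junction genes, -0.19 for the adherens junction genes and 0.17 for the desmosome genes, beside -0.01 over all genes.

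CLDN23, a claudin of the colon, was lower in DKS-5. It read 78.4 and 61.2 in DKS-5 hypoxia, 83.4 and 97.2 in DKS-5 normoxia, 177 and 137.5 in DKO-3 hypoxia, and 132 and 138 in DKO-3 normoxia. The lines did not overlap. The averaged difference was -0.76 (adjusted p = 0.0119), and that in hypoxia was -1.01 (adjusted p = 0.0322). The averaged call was lost without DKS-5 normoxia replicate 1 (adjusted p = 0.0686) or DKO-3 hypoxia replicate 1 (adjusted p = 0.0734). The call in hypoxia was lost without DKS-5 hypoxia replicate 2, either DKS-5 normoxia array or either DKO-3 hypoxia array (adjusted p of 0.0552 to 0.297). CGNL1, which encodes the tight junction protein paracingulin, was dim and lower in DKS-5, with a difference of -0.74 (adjusted p = 0.0262) and overlapping lines. Its call was lost without DKS-5 hypoxia replicate 1, either DKS-5 normoxia array, DKO-3 hypoxia replicate 2 or DKO-3 normoxia replicate 1 (adjusted p of 0.0596 to 0.113).

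Among desmosome genes, the cadherin genes DSC2 and DSG2 were higher in DKS-5 and the plakin gene PPL was lower. DSG2 read 1757 and 2723 in DKS-5 hypoxia, 1590 and 2212 in DKS-5 normoxia, 1099 and 1513 in DKO-3 hypoxia, and 1245 and 1304 in DKO-3 normoxia. It differed by 0.65 (adjusted p = 0.0208), and DSC2 by 0.95 (adjusted p = 0.0221). PPL read 516 and 487 in DKS-5 hypoxia, 384.5 and 459 in DKS-5 normoxia, 845 and 761 in DKO-3 hypoxia, and 599 and 632.5 in DKO-3 normoxia, a difference of -0.60 (adjusted p = 0.0193). The lines overlapped for DSC2 and not for DSG2 and PPL. The calls of DSC2 and DSG2 were lost without DKS-5 hypoxia replicate 2, DKS-5 normoxia replicate 2, DKO-3 hypoxia replicate 1 or either DKO-3 normoxia array (adjusted p of 0.058 to 0.14 for DSC2 and 0.0529 to 0.132 for DSG2). That of PPL was lost without either DKS-5 normoxia array, DKO-3 hypoxia replicate 1 or DKO-3 normoxia replicate 2 (adjusted p of 0.0506 to 0.128). Without scaling, DSC2 (adjusted p = 0.0695) and DSG2 (adjusted p = 0.131) no longer passed.

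Both gap junction genes tested differed, in opposite directions, and their averaged calls held without any 1 array. GJC1, which encodes connexin 45, read 26.0 and 12.6 in DKS-5 hypoxia, 19.1 and 23.0 in DKS-5 normoxia, 80.2 and 51.6 in DKO-3 hypoxia, and 69.3 and 155 in DKO-3 normoxia. It was 2.76-fold lower in DKS-5, with an averaged difference of -1.46 (adjusted p = 0.000733), and differed by -1.22 in hypoxia (adjusted p = 0.0472) and by -1.71 in normoxia (adjusted p = 0.00856). GJB2, which encodes connexin 26, read 2864 and 2816 in DKS-5 hypoxia, 3195 and 3416 in DKS-5 normoxia, 1797 and 1925 in DKO-3 hypoxia, and 2284 and 2198 in DKO-3 normoxia. It was higher in DKS-5 by 0.58 on average (1.5-fold, adjusted p = 0.00281) and by 0.61 in hypoxia (adjusted p = 0.0379). The call of GJC1 in hypoxia was lost without DKS-5 hypoxia replicate 2, either DKS-5 normoxia array or either DKO-3 hypoxia array (adjusted p of 0.0633 to 0.412), and that in normoxia without either DKS-5 normoxia array or DKO-3 normoxia replicate 2 (0.0527 to 0.148). The call of GJB2 in hypoxia was kept only without 1 of the DKS-5 hypoxia arrays and was lost without any other array (adjusted p of 0.0595 to 0.261). Without scaling, the averaged difference of GJB2 was 0.35 (adjusted p = 0.0582).

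NECTIN3, an adhesion gene of the immunoglobulin family, was dim. It read 26.5 to 37.5 on the DKS-5 arrays and 1.25 to 29.4 on the DKO-3 arrays. The DKO-3 signals, apart from normoxia replicate 2 (29.4), lay below the filter of about 13.8, and all DKS-5 signals lay above it. NECTIN3 thus entered the test through its DKS-5 signals. It was higher in DKS-5 by 0.95 on average (adjusted p = 0.0193) and by 1.24 in hypoxia (adjusted p = 0.0489). The averaged call was lost without DKS-5 normoxia replicate 1 (adjusted p = 0.0754), DKO-3 hypoxia replicate 1 (adjusted p = 0.115) or DKO-3 normoxia replicate 1 (adjusted p = 0.0854), and the call in hypoxia without any 1 of the DKS-5 or DKO-3 hypoxia arrays or the DKS-5 normoxia arrays (0.0576 to 0.432). With the quality covariate NECTIN3 alone of these 8 genes kept its averaged call (1.49, adjusted p = 0.0216). That call is set against the same DKO-3 values near the floor. For the other 7 the adjusted p was 0.0652 to 0.232, while the differences kept their direction. They were larger than without the covariate for DSC2 (1.25), DSG2 (0.92), CGNL1 (-0.86) and CLDN23 (-0.81), and smaller for GJB2 (0.56), PPL (-0.56) and GJC1 (-1.14).

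**Figure D5:**
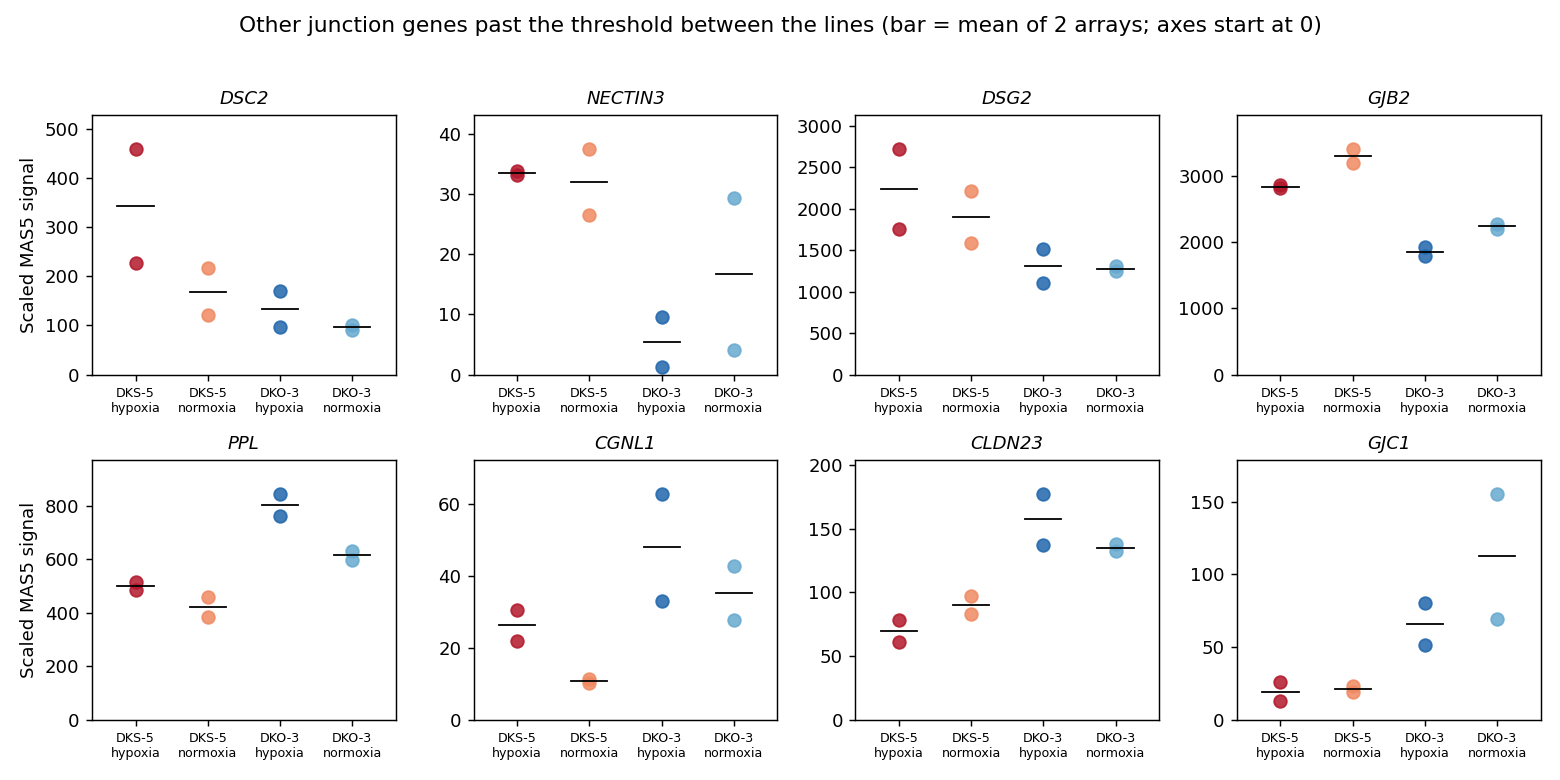
Scaled MAS5 signal (linear axes from 0) of the 8 other junction genes past the threshold between the lines, with 1 point per array and a bar at the mean of the 2 arrays of a group. DSC2, NECTIN3, DSG2 and GJB2 are higher in DKS-5, and PPL, CGNL1, CLDN23 and GJC1 are lower, with GJB2 at 2816 to 3416 in DKS-5 and 1797 to 2284 in DKO-3. NECTIN3 entered the test through its DKS-5 signals.

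None of the 4 tested genes for the EPCAM paralogue and surface proteases, the 10 tested transcriptional regulators of junction genes or the 5 tested mesenchymal genes passed in any comparison. In the averaged comparison of the lines, the unadjusted p was under 0.05 for 0, 2 (ELF3 and KLF5) and 1 (ACTA2) of them, and for 22.5% of all genes. The repressor genes SNAI1, SNAI2, ZEB2 and TWIST1 and the mesenchymal filament gene VIM lay below the filter, and ZEB1 was dim at 8.92 to 21.2. Averaged over both lines, 9 of the 10 tested regulators had a positive hypoxia difference, and 5 (GRHL3, ESRP1, OVOL1, ELF3 and KLF4) had an unadjusted p under 0.05, as had 14.3% of all genes. The median over the 10 was 0.34, beside 0.03 over all genes. The list mixes activators and repressors, and ZEB1 was among the positive ones, at 16.1 to 21.2 in hypoxia and 8.92 to 14.5 in normoxia. Values with the quality covariate are not given for these genes, and nothing about the list as a whole is read from these signs. ELF3, an epithelial transcription factor, read 879 and 689 in DKS-5 hypoxia, 571 and 475 in DKS-5 normoxia, 1227 and 963 in DKO-3 hypoxia, and 839.9 and 645.5 in DKO-3 normoxia.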

How the data were processed

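Gene expression was measured on 8 one-colour Affymetrix HG-U133 Plus 2.0 arrays. RNA was isolated with Qiagen RNeasy and amplified and biotinylated with NuGEN Ovation V2 reagents, per the labels' protocols. The deposited values are probe set intensities on a linear scale from MAS5, as the submitters' processing notes say, with no version or target intensity given in the sources used here. Detection calls were not used here.

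Trimmed means (2%) of the 54613 probe sets other than controls differed 1.52-fold between arrays, so each array was scaled to their median, 172.1. Values were taken as log2(signal + 16), which understates how far dim genes changed. Of 54675 probe sets, 62 were controls, left out of the trimmed means and of the tests. Of the others, 41091 had 1 gene symbol and 1801 several, and no symbol changed against RefSeq GRCh38.p14. Each of 19775 genes was read from its brightest probe set, and 12735 were tested, those whose mean exceeded the 40th percentile (a signal of about 13.8). Of the 10 junction genes 9 passed this filter, and 16 of their 18 probe sets.

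limma 3.58.1 in R 4.3.3 fitted 1 mean per group over all 8 arrays (eBayes with trend, 4 residual and 11.3 prior degrees of freedom), two-sided, with Benjamini-Hochberg adjustment over all genes at 0.05. The 7 comparisons were hypoxia in each line, their difference and average, and DKS-5 against DKO-3 at each oxygen level and averaged. They share arrays and are not independent. The number of arrays limits their precision. The RNA quality covariate was the mean log2 3′ to 5′ ratio of the ACTB and GAPDH control probe sets. Alternatives were other pseudocounts, scalings, filters and probe set rules, a replicate block, the quality covariate, only the groups compared, and leaving out each array. The tests were tested on simulated log2 values with genes changed by known folds. Named were the 10 genes, up to 4 passing genes of each of 8 lists, and the 2 genes nearest to the profile of any junction gene that passed. KRT19, KRT20, VIL1, the regulators below the filter and ELF3 were named after their values were seen. The genes and lists were chosen with earlier results of these data known. The level of K-ras was not used here.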

Additional observations from a re-analysis of the deposited data

How the results depend on the processing

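The count of the 9 tested genes past the threshold did not move in either line's hypoxia comparison or in the difference between the lines' responses under any alternative run. The averaged CLDN1 difference passed in every one, with an adjusted p of 0.00013 to 0.0381, but not when single probe sets were tested with the quality covariate, chosen after seeing the data (0.0746). Other counts moved. In the comparison of the lines in hypoxia, main count 1, it was 2 without scaling (CLDN1 and CLDN7), 0 without the filter and 0 under the covariate for RNA quality. In normoxia, main count 1, it was 0 without the filter. Averaged over both oxygen levels, main count 1, it was 3 without scaling (CLDN1, CLDN7 and TJP1), 2 with the mean of all probe sets (CLDN1 and TJP1) and 2 with the quality covariate (CLDN1 and CLDN4). Leaving out 1 array gave 0 to 2 for hypoxia averaged over both lines, 0 to 2 for the lines in hypoxia, 0 to 1 in normoxia and 1 to 2 averaged. A lone array is then assumed to vary like the other groups. Without scaling, the median of all genes moved by -0.42 for the lines in hypoxia. The fit of only the groups compared applies to comparisons of 2 groups alone. Apart from the calls lost by leaving out arrays and by the filter, the causes of these moves were not tested. With the sample numbers as a replicate block no junction gene's call changed, CLDN1 had an adjusted p of 0.00975 in hypoxia, 0.00719 in normoxia and 0.00013 averaged, and the genes passing for averaged hypoxia numbered 325 against 152. The probe set 214168_s_at of TJP1 passed under this block (adjusted p = 0.0348). Deviations of same-numbered arrays correlated at -0.087 to 0.33 over the 6 pairs of groups, not all above 0.1, so the numbers were not taken as pairs.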
